A study of Mus musculus with 12 samples.

Results

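Replication-dependent histone genes were followed in mouse mammary epithelial cells. They were taken as every symbol of the deposited count table that begins with Hist1h, Hist2h, Hist3h or Hist4h followed by a histone class, which gave 69 of 53735 symbols. RNA was sequenced from cells sorted on CD24 and CD49f into luminal and basal populations. The cells came from MMTVRANK mice, which express the receptor Rank (gene Tnfrsf11a) under the promoter of mouse mammary tumour virus, active in mammary epithelium, and from WT mice. The 12 libraries fall into MMTVRANK luminal, WT luminal, MMTVRANK basal and WT basal groups, each with replicates 1, 2 and 3. The labels give no age, no treatment and no origin of a replicate, so p-values measure the spread between these libraries, which may be technical in part.

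Replication-dependent histone genes encode the histones that package newly made DNA. They lie in clusters, have no introns in their classical form, and are transcribed mainly during S phase. Their mRNA normally ends in a conserved stem-loop, bound by the protein SLBP, in place of a poly(A) tail, and is degraded when DNA replication stops. A few members, among them Hist1h1c, Hist1h2bc and Hist2h2be, are also known to be made as polyadenylated transcripts in cells that do not divide. Mammary epithelium divides in response to progesterone, and Rank with its ligand is known as a mediator of that response.

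The set held 6 genes of the linker histone H1, which binds DNA between nucleosomes, and 19 genes of H2A, 19 of H2B, 12 of H3 and 13 of H4, which form the nucleosome core. Among them, Hist1h2aj of the H2A class and Hist3h2bb-ps of the H2B class are annotated as pseudogenes. On the table's build, GRCm38.p6, 55 of them lie on chromosome 13 between 21715763 and 23934851, 10 on chromosome 3 between 96219865 and 96270132, 3 on chromosome 11 between 58948920 and 58956830, and Hist4h4 alone on chromosome 6 at 136801553 to 136804415.

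The stem-loop is printed for members whose values are given at length, because its 16 bases are the shared mark of these mRNAs. The sequences were found in transcripts of GENCODE M21 on GRCm38 and are written 5′ to 3′ as DNA, with the 4 bases of the loop in capitals.
Hist1h1c, chr13:23739512-23739527, plus strand: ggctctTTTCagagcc
Hist1h2bm, chr13:21722506-21722521, plus strand: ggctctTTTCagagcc
Hist1h3e, chr13:23561903-23561918, minus strand: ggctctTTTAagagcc
Hist1h4d, chr13:23581950-23581965, plus strand: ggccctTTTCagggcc
Hist1h4i, chr13:22040966-22040981, minus strand: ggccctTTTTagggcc
Hist4h4, chr6:136803998-136804013, minus strand: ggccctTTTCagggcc

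A search of all annotated transcripts for GGNNCTNTTNAGNNCC on the transcript strand matched 44 of the 69 histone genes, against 149 other genes, or 0.27% of them. The form seen in Hist1h1c was found in 26 histone genes of the H1, H2A, H2B and H3 classes and in no H4 gene. The 11 H4 matches instead held other stems, 7 of them the form seen in Hist1h4d. Of the 25 genes without a match, 13 have an annotated transcript that ends at the stop codon, so the stem-loop would lie outside the model. Hist1h2bc and Hist2h2be have 742 and 2192 annotated bases after the stop codon and no match. In 22 members the annotated transcript runs more than 100 bases past the stem-loop, by 840 bases in Hist1h1c and 4884 bases in Hist1h1d.

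The 250 bases before RefSeq's transcription start are printed for 4 genes of the H1 class, whose subtypes are described one by one further on. They are also printed for the H2A gene Hist1h2ak, whose upstream region is shared head to head with the H2B gene Hist1h2bn. The counted models can start elsewhere. That of Hist1h1d begins at 23553262, so its printed stretch lies inside the counted exon. That of Hist1h2ak begins at 21753827, downstream of RefSeq's start, and the TATAAA of its RefSeq promoter lies past the printed bases. Sequences are RefSeq's on GRCm38.p6, on the strand of the gene, with capitals at the promoter motifs named after them, on either strand.
Hist1h1a, chr13:23763418-23763667, plus strand: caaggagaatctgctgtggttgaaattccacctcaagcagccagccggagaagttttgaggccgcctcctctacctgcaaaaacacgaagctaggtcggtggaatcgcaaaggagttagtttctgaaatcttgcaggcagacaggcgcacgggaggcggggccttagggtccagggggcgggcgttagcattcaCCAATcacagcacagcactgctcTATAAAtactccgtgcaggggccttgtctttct
Hist1h1b, chr13:21780626-21780875, minus strand: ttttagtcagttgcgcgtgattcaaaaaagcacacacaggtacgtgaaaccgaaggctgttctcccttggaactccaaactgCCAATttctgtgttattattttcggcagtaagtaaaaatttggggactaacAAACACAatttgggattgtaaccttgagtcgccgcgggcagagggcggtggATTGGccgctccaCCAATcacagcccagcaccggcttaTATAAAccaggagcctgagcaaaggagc
Hist1h1c, chr13:23738557-23738806, plus strand: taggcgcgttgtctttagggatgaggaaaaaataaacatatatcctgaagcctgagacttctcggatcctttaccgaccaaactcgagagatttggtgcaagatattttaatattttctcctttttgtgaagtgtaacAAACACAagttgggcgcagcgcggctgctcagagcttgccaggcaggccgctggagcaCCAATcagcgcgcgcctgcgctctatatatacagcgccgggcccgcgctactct
Hist1h1d, chr13:23554782-23555031, plus strand: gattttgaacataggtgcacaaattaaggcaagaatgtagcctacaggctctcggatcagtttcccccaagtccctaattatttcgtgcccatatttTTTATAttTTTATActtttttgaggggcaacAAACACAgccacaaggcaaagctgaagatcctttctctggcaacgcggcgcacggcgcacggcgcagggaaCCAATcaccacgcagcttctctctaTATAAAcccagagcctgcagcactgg
Hist1h2ak, chr13:21753913-21754162, minus strand: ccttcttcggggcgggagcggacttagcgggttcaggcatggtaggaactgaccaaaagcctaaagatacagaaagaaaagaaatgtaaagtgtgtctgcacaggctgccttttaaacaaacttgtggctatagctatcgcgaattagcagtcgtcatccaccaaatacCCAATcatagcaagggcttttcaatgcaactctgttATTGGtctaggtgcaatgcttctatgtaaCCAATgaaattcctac

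RefSeq promoters of 300 bases, which also hold the first 50 bases after RefSeq's start, matched 61 of the 69 genes. CCAAT was present in 52 of the 61, against 37.41% of all promoters, and 9 of the 12 H4 promoters lacked it. TATAAA was in 35 of the 61, against 13.62% of all promoters. The octamer ATTTGCAT was in 7 H2A and 7 H2B promoters and in none of the H1, H3 or H4 promoters, against 1.74% of all promoters. AAACACA, known from H1 promoters, was in 5 of 6 H1 promoters, with Hist1h1a as the exception, and in 2 of 17 H2A, 2 of 16 H2B and no H3 or H4 promoters, against 7.18% of all promoters. Both strands were searched, and matches to different motifs overlapped in 0 of the 62 promoters read, since Hist1h2be has a pair.

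Reads of these genes took up between 0.0246% (95% Wilson interval 0.02378% to 0.02545%) of the counts in WT basal replicate 1 and 0.1532% (0.1512% to 0.1552%) in MMTVRANK luminal replicate 3. Library totals lay between 12459547 and 15069578 counts, intervals cover counting error only, and H1 genes held 69.4% of the 135198 histone counts. In total 58 members had a count in some library and 11 had none. Of those 11, 8 have transcripts in which over 80% of the 50-base windows also occur in another gene, and 5 lie wholly under another symbol, which together covers all 11. Among the 58 members with a count, 8 passed the same 80% of shared windows and none lay wholly under another symbol. The counting command kept no read that maps to several places, so a member listed at 0 is not shown to be silent, and the levels of near-identical copies are uncertain. The H2A class had the highest median share of such windows, 78.9%, and the H1 class the lowest, 1.12%.

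**Figure D1:**
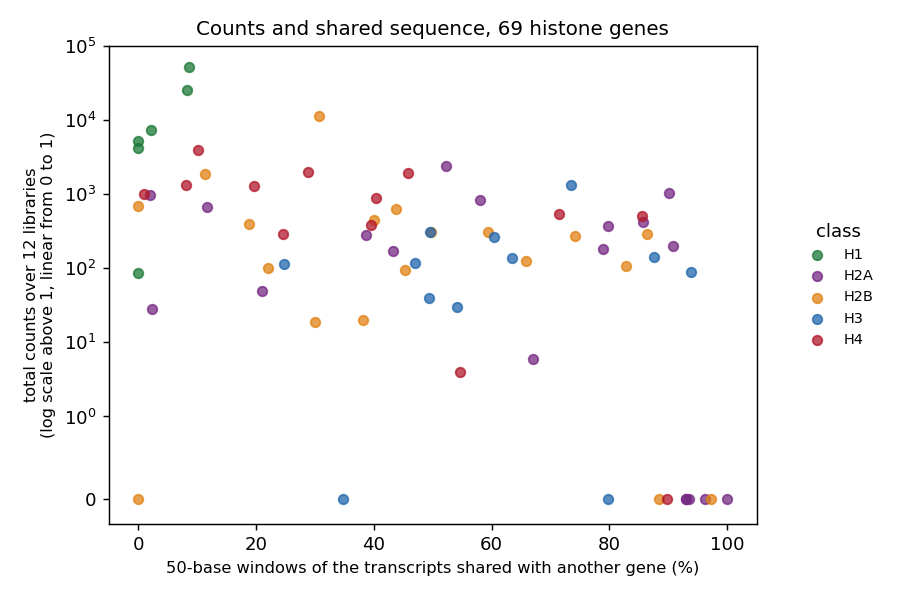
Total counts over the 12 libraries (symmetric log scale) against the share of 50-base transcript windows that also occur in another gene, for each of the 69 histone genes, coloured by class. Hist1h1c, Hist1h1e, Hist1h2bc, Hist1h1d, Hist1h1b and Hist1h1a hold the highest counts, Hist1h1t has 86, and 8 of the 11 genes at 0 lie beyond 80%.

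Of the 58, 50 reached 0.728 CPM (counts scaled to library size alone) in at least 3 libraries and were tested, and 8 with 4 to 50 counts in all were not. CPM values other than this minimum are scaled to library size and by the trimmed mean of M values (TMM). The minimum was reached in at least 1 library of every group by 37 of the tested members and in MMTVRANK luminal libraries alone by 1. The testis forms were near the bottom. Hist1h2aa and Hist1h2ba were not tested, and Hist1h1t was tested at 1.43, 0.256 and 0.351 CPM in MMTVRANK luminal and 0.150, 0.638 and 0.826 CPM in WT luminal libraries.

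Per kilobase of exon, mean levels over the 12 libraries were 186 CPM for Hist1h1c, 76.6 for Hist1h1e and 40.4 for Hist1h1b, the 3 highest of the H1 class. The H2B class was led by Hist1h2bc at 56.0, followed by Hist1h2bm at 6.87 and Hist1h2bb at 5.10. The H2A class was led by Hist1h2ak at 35.02, Hist1h2ai at 15.1 and Hist1h2ab at 9.84. H4 was led by Hist1h4h at 23.7, Hist1h4d at 20.1 and Hist1h4i at 15.0. The H3 class was led by Hist1h3e at 9.06, Hist1h3a at 3.35 and Hist1h3b at 2.39. These are levels per length of the annotated exons, which for Hist1h1d reach 7425 bases, and a model longer than the transcript in the cell lowers the value. Reads that map to several places were not counted, so genes with much shared sequence may read too low. Shared 50-base windows made up 90.12% in Hist1h2ai and 73.44% in Hist1h3e, against 8.54% in Hist1h1c.

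The sorted populations carried their markers. All 12 luminal markers were higher and all 12 basal markers lower in luminal than in basal libraries of either genotype. The leukocyte markers, 16 in all, summed to 126, 159 and 1116 CPM in MMTVRANK luminal replicates 1, 2 and 3 and to between 133 and 144 CPM in WT luminal libraries. All 16 had counts in MMTVRANK luminal replicate 3, whereas between 2 and 6 of them were at 0 in each other luminal library. Without Lcp1, which made up most of the other luminal sums, they were 5.79, 26.5 and 934 CPM in MMTVRANK luminal and 10.1, 21.8 and 38.5 CPM in WT luminal libraries. In basal cells the sums were 27.4, 31.0 and 231 CPM in MMTVRANK and 30.5, 21.5 and 59.0 CPM in WT libraries, and all 16 markers had counts in MMTVRANK replicate 3. Tnfrsf11a was at 319, 156 and 238 CPM in MMTVRANK luminal and 6.36, 90.8 and 9.91 in WT luminal libraries, and at 415, 129 and 218 in MMTVRANK basal and 73.7, 158 and 65.3 in WT basal libraries. Between the genotypes in luminal cells it did not pass (log2 fold change 2.74, SE 0.89, adjusted p = 0.224). Both libraries labelled WT replicate 2 were the highest of their groups, and for them the title and the cell subtype label name opposite populations. The titles were used, and the lineage markers side with them. The luminal markers summed to 17522 CPM in WT luminal replicate 2 and 572 CPM in WT basal replicate 2. The basal markers summed to 577 and 29454 CPM in these libraries. Without both of these libraries, Tnfrsf11a was called in luminal cells, at a log2 fold change of 4.87 with an adjusted p of 0.0154. The basal markers summed to 398, 495 and 818 CPM in MMTVRANK luminal and 290.3, 577 and 505 CPM in WT luminal libraries, of which Itga6 alone was 311, 379.9 and 387 CPM in MMTVRANK and 246, 509 and 383 CPM in WT libraries. Of these markers 11 of 12 had a log2 fold change above 0, with a median of 1.03 and 6 at an unadjusted p below 0.05. The luminal markers summed to 14376, 13060.1 and 8280 CPM in MMTVRANK luminal and 23533, 17522 and 16473 CPM in WT luminal libraries, without overlap. Between the genotypes, 0 of the 8 fibroblast and 0 of the 7 endothelial markers were called by edgeR in either population. In basal cells the fibroblast markers summed to 683, 534 and 689 CPM in MMTVRANK and 2894, 552 and 303 CPM in WT libraries, where WT replicate 1 was the highest. Of these 8 markers, 7 had a log2 fold change below 0, with a median of −1.74 and 2 at an unadjusted p below 0.05.

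In luminal cells, no histone gene passed the threshold between the genotypes, but most point estimates were higher in MMTVRANK. With edgeR's quasi-likelihood test at an adjusted p of 0.05 over 18236 genes, 0 of the 50 tested members were called, where 0.252% of all genes were, 0.0932% higher and 0.159% lower. At an unadjusted p below 0.05 there were 19 members, all higher in MMTVRANK, and 2183 of the 18236 genes. The log2 fold change was above 0 in 44 of the 50, with a median of 1.48, against 52.8% of all genes tested and a median of 0.03. In 26 members every MMTVRANK library lay above every WT library, a position that 10.1% of all genes held, and in 1, Hist2h3c2, every one lay below, as in 6.82% of all genes. In bulk libraries, fewer cells of a type and less RNA per cell cannot be told apart.

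The largest H1 differences were in Hist1h1a and Hist1h1b, the subtypes with the shortest exon models. Hist1h1a was at 77.6, 30.2 and 65.0 CPM in MMTVRANK luminal replicates 1, 2 and 3, against 8.61, 18.6 and 7.56 in WT luminal replicates. Replicate 2 was the lowest of the MMTVRANK and the highest of the WT libraries, and the groups did not overlap. The difference had the smallest p of the members (log2 fold change 2.31, SE 0.44, adjusted p = 0.0594). Hist1h1b was at 79.3, 37.3 and 73.6 CPM in MMTVRANK and 6.36, 22.1 and 3.56 CPM in WT luminal libraries, with replicate 2 again nearest to the other genotype (log2 fold change 2.57, SE 0.62, adjusted p = 0.113).

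The other H1 subtypes had smaller log2 fold changes. Hist1h1c was at 321, 600.4 and 424 CPM in MMTVRANK luminal and 249, 635 and 625 in WT luminal libraries. Replicate 1 was the lowest in either genotype, and the groups overlapped (log2 fold change -0.17, SE 0.38, adjusted p = 0.956). Hist1h1d was at 68.8, 84.1 and 77.6 CPM in MMTVRANK and 26.3, 70.0 and 82.8 CPM in WT luminal libraries, also overlapping (log2 fold change 0.36, SE 0.31, adjusted p = 0.777). Hist1h1e was at 217, 208 and 239 CPM in MMTVRANK and 97.8, 202 and 177 CPM in WT libraries, with all MMTVRANK libraries above the WT ones by a small margin (log2 fold change 0.48, SE 0.31, adjusted p = 0.639). Its exon model overlaps that of Hist1h2be, and reads of the shared stretch cannot be assigned between them.

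Among the H2A genes, Hist1h2ak was at 34.2, 16.4 and 35.03 CPM in MMTVRANK luminal and 3.89, 6.81 and 3.11 in WT luminal libraries, without overlap (log2 fold change 2.63, SE 0.75, adjusted p = 0.169). Hist1h2ai was at 14.6, 7.86 and 13.6 CPM in MMTVRANK and 3.14, 4.82 and 2.99 CPM in WT libraries. These H2A models overlap an opposite-strand symbol over 35.1% of their exons, and reads were counted without strand. Hist3h2a, in the small cluster of chromosome 11, was at 5.92, 10.5 and 7.21 CPM in MMTVRANK and 9.06, 9.93 and 14.3 CPM in WT libraries, where the groups overlapped (log2 fold change -0.50, SE 0.39, adjusted p = 0.746). Over the 11 tested H2A genes the log2 fold change was above 0 in 10, with a median of 1.91.

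Hist1h2bm was at 8.92, 3.64 and 8.55 CPM in MMTVRANK luminal and 0.748, 1.42 and 0.318 in WT luminal libraries, without overlap (log2 fold change 3.08, SE 0.92, adjusted p = 0.182). Hist1h2bc, the H2B gene with the highest level per kilobase, was at 57.5, 150.2 and 67.1 CPM in MMTVRANK and 77.5, 152 and 147 CPM in WT libraries. Here the single high MMTVRANK library was replicate 2, at the level of WT replicates 2 and 3, and replicates 1 and 3 lay below every WT library (log2 fold change -0.46, SE 0.46, adjusted p = 0.831). Hist2h2be was at 8.51, 8.37 and 4.75 CPM in MMTVRANK and 7.48, 9.72 and 2.54 CPM in WT libraries, and these overlapped. Over the 14 tested H2B genes 12 were above 0, with a median of 1.56.

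In the H3 class, Hist1h3e was at 17.6, 10.3 and 19.4 CPM in MMTVRANK luminal and 4.12, 8.44 and 4.32 in WT luminal libraries, without overlap (log2 fold change 1.49, SE 0.46, adjusted p = 0.190). Hist1h3b was at 3.95, 1.53 and 4.28 CPM in MMTVRANK and 0.524, 0.355 and 0.445 CPM in WT libraries, values that rest on few reads in WT. Hist1h3a was at 3.95, 1.66 and 4.10 CPM in MMTVRANK and 0.374, 2.27 and 0.826 CPM in WT libraries, which overlapped. The median over the 8 tested H3 genes was 1.86, with 7 above 0.

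In the H4 class, Hist4h4, the single gene on chromosome 6, was at 13.5, 7.35 and 14.4 CPM in MMTVRANK luminal and 3.67, 5.46 and 4.26 in WT luminal libraries, without overlap (log2 fold change 1.39, SE 0.36, adjusted p = 0.130). Hist1h4d was at 46.9, 26.9 and 43.3 CPM in MMTVRANK and 23.0, 21.2 and 23.1 CPM in WT libraries, also without overlap (log2 fold change 0.80, SE 0.26, adjusted p = 0.220). Hist1h4i was at 8.24, 25.3 and 17.6 CPM in MMTVRANK and 7.41, 24.8 and 33.4 CPM in WT libraries, which overlapped (log2 fold change -0.36, SE 0.55, adjusted p = 0.911). The median over the 11 tested H4 genes was 0.81, with 10 above 0.

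**Figure D2:**
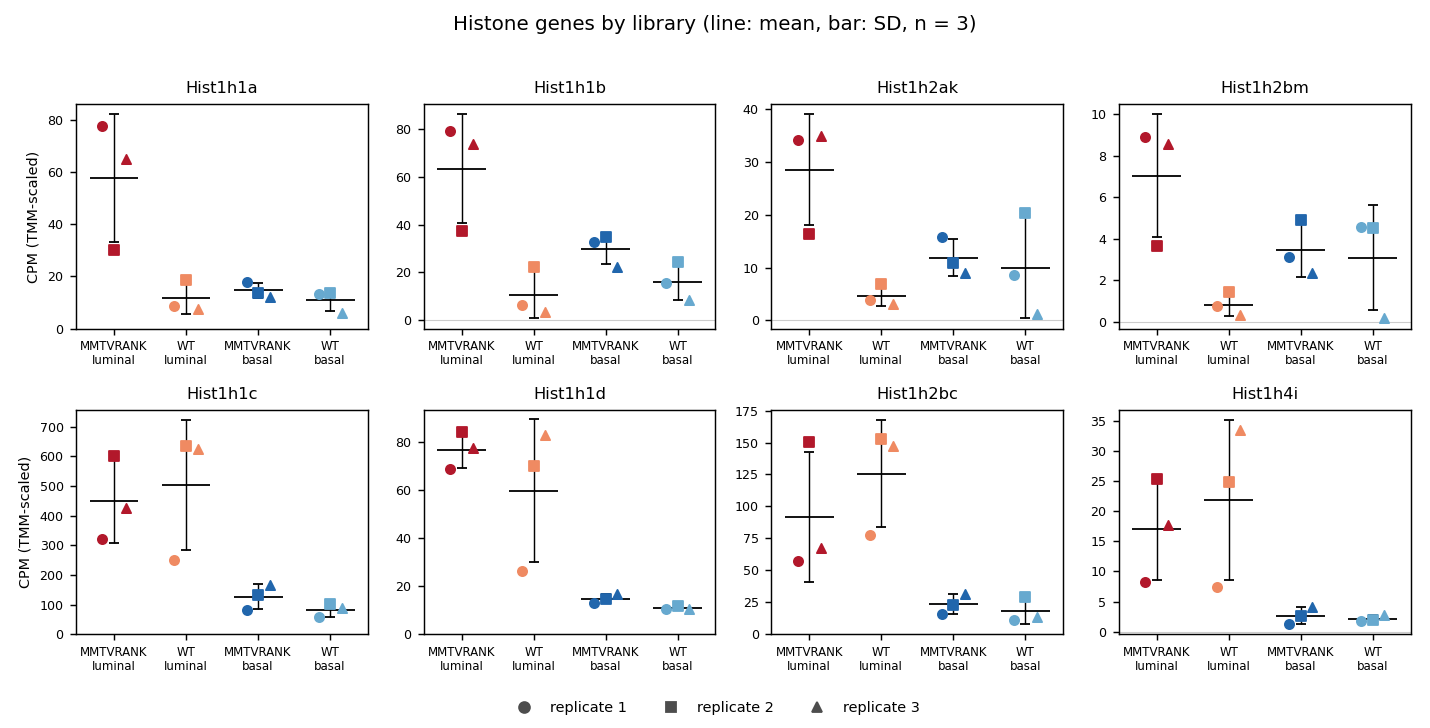
CPM of 8 histone genes in each library, with the group mean (line) and SD (bar, n = 3), MMTVRANK left of WT in each population. In the upper row the MMTVRANK luminal libraries lie above the WT luminal libraries, with replicate 2 the lowest of them. In the lower row the luminal libraries of both genotypes lie above the basal ones and overlap each other.

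The absence of calls in luminal cells depended on the test and on single libraries. DESeq2's Wald test called 9 members, all higher in MMTVRANK, namely Hist1h1a, Hist1h1b, Hist1h2ah, Hist1h2ak, Hist1h2bj, Hist1h2bm, Hist1h3b, Hist1h3e and Hist4h4, where it called 4.39% of all genes and left 10 members without an adjusted p. limma-voom called 0. Without a filter on low counts edgeR called 6 of 58, where 3.58% of all genes were called. Without both libraries labelled WT replicate 2, edgeR called 2, Hist1h1a at a log2 fold change of 2.83 with an adjusted p of 0.0364 and Hist1h1b at 3.68 with an adjusted p of 0.0154, where 0.426% of all genes were called. Without MMTVRANK luminal replicate 3, which had the highest leukocyte marker sum, Hist1h1a was at 2.18 with an adjusted p of 0.153, and 0 members were called, where 0.057% of all genes were. Leaving out WT luminal replicate 2 alone gave the same 2 calls, where 0.237% of all genes were called. Leaving out MMTVRANK luminal replicate 2 gave Hist1h1a, with 0.242% of all genes called, and leaving out WT basal replicate 3 gave Hist1h1a and Hist1h2ak, with 0.485% called.

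Single libraries were at the edge of their group in many members. MMTVRANK luminal replicate 2 was the lowest of its group in 41 of the 50 tested members, and WT luminal replicate 2 was the highest of its group in 25. MMTVRANK luminal replicate 1 held the highest value of all 12 libraries in 22 members and replicate 3 in 18. WT basal replicate 3 was the lowest of its group in 33 members, and 14 tested members had no read in it.

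The members were also grouped by the exon length of their model, with 51 of 1000 bases or less and 18 above. The sum over all 51 shorter members, which needs no filter, was 388, 199.9 and 379.9 CPM in MMTVRANK luminal replicates 1, 2 and 3, against 85.2, 142 and 99.5 CPM in WT luminal replicates. The MMTVRANK libraries all lay above the WT ones, and their mean was 2.97 times as high, at 323 against 109 CPM. Hist1h1a and Hist1h1b held 57.6 and 63.4 CPM of the first mean, and 11.6 and 10.7 CPM of the second. The sum over the 18 longer members was 779, 1135 and 914 CPM in MMTVRANK luminal and 515, 1145 and 1124 CPM in WT luminal libraries. These overlapped, with means of 943 ± 179.7 and 928 ± 358 CPM (SD, n = 3 each) and a ratio of 1.02. Most of this sum came from Hist1h1c and Hist1h1e, at means of 449 and 221 CPM in MMTVRANK and 503 and 159 CPM in WT. Of the tested members, 35 of the 36 shorter ones had a log2 fold change above 0, with a median of 1.77, against 9 of the 14 longer ones and a median of 0.42. Of the tested members, 14 have the poly(A) signal AATAAA or ATTAAA in the last 50 annotated bases. Their median between the genotypes in luminal cells was 0.50, against 1.76 in the other 36. Between WT populations 6 of these 14 and 4 of the other 36 were called higher in luminal cells, where 18% of all genes were. Only annotated ends were searched, so Hist1h2bc counts among the 36 although it is known as polyadenylated.

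**Figure D3:**
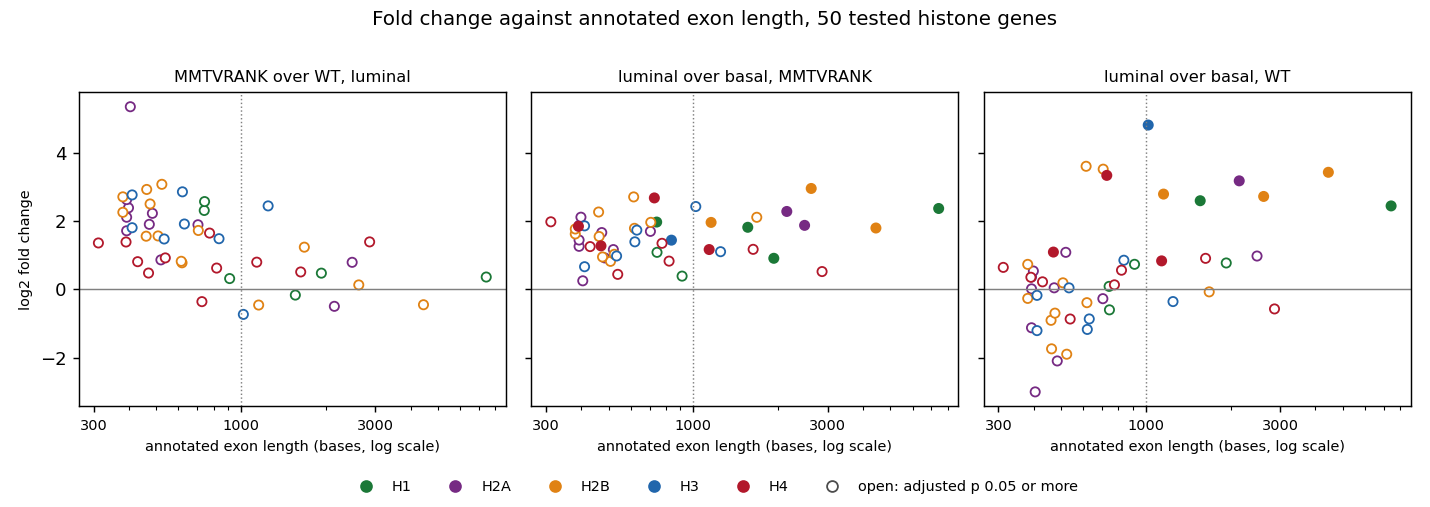
Log2 fold change of the 50 tested histone genes against annotated exon length (log scale, dotted line at 1000 bases), for MMTVRANK over WT in luminal cells and for luminal over basal cells in each genotype. Filled points passed an adjusted p of 0.05. In the first panel the points right of the dotted line have a median of 0.42 and those left of it 1.77, and in the WT panel most filled points lie right of it.

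In basal cells no histone gene passed the threshold between the genotypes. edgeR called 0 of the 50 members, where it called 0.00548% of all genes. At an unadjusted p below 0.05 there were 0 members and 986 of the 18236 genes. DESeq2 and limma-voom also called 0, and so did edgeR without both libraries labelled WT replicate 2. The log2 fold change was above 0 in 37 members, with a median of 0.37, against 50.5% of all genes and a median of 0.004. Every MMTVRANK library lay above every WT library in Hist1h1d and Hist1h2be, where 6.6% of all genes held that position, and every one lay below in Hist1h4a, as in 4.52% of all genes.

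Hist1h2be, among the 3 members with the smallest p, was at 2.50, 7.17 and 3.37 CPM in MMTVRANK basal and 1.55, 1.94 and 2.22 in WT basal libraries (log2 fold change 1.18, SE 0.57, adjusted p = 0.901). Hist1h3e was at 6.66, 7.76 and 2.98 CPM in MMTVRANK and 2.09, 3.89 and 3.34 CPM in WT basal libraries, which overlapped (log2 fold change 0.90, SE 0.46, adjusted p = 0.917). Hist1h2bp had 13 reads in MMTVRANK and 1 read in WT basal libraries. Scaled by library totals, the ratio was 12.2 with a 95% counting interval of 1.84 to 521, which leaves out the spread between libraries. By library, Hist1h2bp was at 0.454, 0.0843 and 0.470 CPM in MMTVRANK and 0, 0 and 0.0856 CPM in WT basal libraries, which overlapped. With edgeR no member had an adjusted p below 0.901 in this comparison. Hist1h1a was at 17.999, 13.7 and 12.2 CPM in MMTVRANK and 13.1, 13.5 and 6.08 CPM in WT basal libraries, with overlap. Hist1h1c was at 81.6, 133 and 167 CPM in MMTVRANK and 57.2, 104 and 88.5 CPM in WT basal libraries, also with overlap. The shorter members summed to 147, 126 and 94.6 CPM in MMTVRANK basal and 96.0, 136 and 44.4 CPM in WT basal libraries, which also overlapped, with WT replicate 3 the lowest.

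The genotype effects in the populations were compared directly by the interaction of genotype and population. edgeR called 0 of the 50 members, where it called 0.00548% of all genes. DESeq2 and limma-voom called 0 as well, and edgeR without a filter on low counts called 3 of 58. The share of all genes that this fit called for the interaction is not given here, so the 3 cannot be judged. Between the genotypes in luminal cells, the same fit called 3.58% of all genes, against 0.252% with the filter. An unadjusted p below 0.05 was reached by 5 members, and by 1410 of the 18236 genes. The 5, all with a positive estimate, were Hist1h1a, Hist1h2bj, Hist1h2bm, Hist1h2ak and Hist1h4a. For Hist1h1a the effect in luminal minus basal cells was 1.88 on the log2 scale (SE 0.61, adjusted p = 0.522). For Hist1h2bm it was 2.93 (SE 1.23, adjusted p = 0.615). The estimate was above 0 in 40 members, with a median of 1.16, against 53.9% of all genes and a median of 0.05.

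Between the populations of MMTVRANK mice, edgeR called 14 of the 50 tested members, all higher in luminal cells, where 33.2% of all genes were called, 16.1% higher and 17% lower. The share of members called in either direction was not above that of all genes. All 50 log2 fold changes were above 0, with a median of 1.59, against 51.9% of all genes and a median of 0.05. Every luminal library lay above every basal library in 30 members, and below in 0, where 27.7% and 26.8% of all genes held those positions. DESeq2 called 18 members, where it called 37.6% of all genes. Without MMTVRANK luminal replicate 1 or without MMTVRANK basal replicate 3 the calls numbered 9, where 23.6% and 25.2% of all genes were called. Without both libraries labelled WT replicate 2 the calls numbered 15, where 30.7% of all genes were called.

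In MMTVRANK mice the called H1 genes were Hist1h1a, Hist1h1c, Hist1h1d and Hist1h1e. Hist1h1d was at 68.8, 84.1 and 77.6 CPM in luminal and 12.9, 14.8 and 16.8 in basal libraries, the largest H1 difference (log2 fold change 2.37, SE 0.33, adjusted p = 0.000153). Hist1h1c was at 449 ± 141 CPM in luminal and 127 ± 43.0 CPM in basal libraries (SD, n = 3 each), without overlap (log2 fold change 1.82, SE 0.40, adjusted p = 0.00427). Hist1h1a was at 57.6 ± 24.6 CPM in luminal and 14.7 ± 2.99 CPM in basal libraries (SD, n = 3 each), again without overlap (log2 fold change 1.97, SE 0.44, adjusted p = 0.00427). Hist1h1b, at 63.4 ± 22.8 CPM in luminal and 29.9 ± 6.54 CPM in basal libraries (SD, n = 3 each), did not pass (log2 fold change 1.09, SE 0.59, adjusted p = 0.190).

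The called H2A genes of MMTVRANK mice were Hist3h2a and Hist1h2ac, and the called H2B genes were Hist2h2be, Hist1h2bc and Hist1h2be. Hist2h2be was at 8.51, 8.37 and 4.75 CPM in luminal and 0.756, 0.590 and 1.41 in basal libraries, the largest fold change of the 14 (log2 fold change 2.96, SE 0.65, adjusted p = 0.00384). Hist3h2a was at 5.92, 10.5 and 7.21 CPM in luminal and 1.82, 1.60 and 1.41 CPM in basal libraries (log2 fold change 2.28, SE 0.42, adjusted p = 0.00119). The remaining calls were Hist1h3e in the H3 class and Hist1h4d, Hist1h4f, Hist1h4h and Hist1h4i in the H4 class. Hist1h4i was at 8.24, 25.3 and 17.6 CPM in luminal and 1.29, 2.61 and 4.07 CPM in basal libraries (log2 fold change 2.68, SE 0.60, adjusted p = 0.00435). Hist1h2ac and Hist1h4f, like Hist1h2ah and Hist1h4a above, were chosen for naming after their values were seen.

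Between the populations of WT mice, 10 of the 50 members were called, all higher in luminal cells, where 38.1% of all genes were called, 18% higher and 20% lower. Over the whole set 31 of 50 log2 fold changes were above 0, with a median of 0.21, against 47.4% of all genes and a median of −0.07. Every luminal library lay above every basal library in 12 members, where 22.3% of all genes held that position, and below in Hist1h4a, as in 23.8% of all genes. DESeq2 also called 10 members, where it called 42.9% of all genes.

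The WT calls were Hist1h1c and Hist1h1d among H1 genes, Hist3h2a among H2A, Hist1h2bc, Hist1h2be and Hist2h2be among H2B, Hist2h3c2 among H3, and Hist1h4d, Hist1h4h and Hist1h4i among H4. Hist1h1c was at 249, 635 and 625 CPM in WT luminal and 57.2, 104 and 88.5 in WT basal libraries (log2 fold change 2.598, SE 0.41, adjusted p = 0.000458). Hist1h2bc was at 77.5, 152 and 147 CPM in luminal and 11.3, 29.5 and 13.6 CPM in basal libraries (log2 fold change 2.79, SE 0.49, adjusted p = 0.00109). Hist1h2be was at 7.33, 22.8 and 31.7 CPM in luminal and 1.55, 1.94 and 2.22 CPM in basal libraries (log2 fold change 3.43, SE 0.59, adjusted p = 0.000677). In each of these genes the lowest luminal library was replicate 1, and it still lay above every basal library.

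Hist1h4i was at 7.41, 24.8 and 33.4 CPM in WT luminal and 1.70, 1.94 and 2.82 CPM in WT basal libraries (log2 fold change 3.34, SE 0.62, adjusted p = 0.00113). Hist2h3c2 had 77 reads in WT luminal and 2 in WT basal libraries. Scaled by library totals, the ratio was 37.5 with a 95% counting interval of 10.04 to 315, which leaves out the spread between libraries. By contrast Hist1h1a was at 8.61, 18.6 and 7.56 CPM in WT luminal and 13.1, 13.5 and 6.08 CPM in WT basal libraries, which overlapped (log2 fold change 0.09, SE 0.43, adjusted p = 0.892). Hist1h2bm was at 0.748, 1.42 and 0.318 CPM in luminal and 4.56, 4.54 and 0.171 CPM in basal libraries, and it did not pass (log2 fold change -1.90, SE 0.90, adjusted p = 0.115). Without both libraries labelled WT replicate 2, 8 members were called, all among the 10, and Hist2h2be and Hist2h3c2 were not, where 28% of all genes were called.

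The population comparisons of the genotypes share no library. They had 9 called members in common, which is 64.3% of the MMTVRANK calls and 90% of the WT calls. Over all genes called higher in luminal cells, the calls in common were 79% of those in MMTVRANK and 70.8% of those in WT. No interaction passed for any of them, but only 0.00548% of all genes passed, so this does not show that the differences are equal. The 9 were Hist1h1c, Hist1h1d, Hist1h2bc, Hist1h2be, Hist1h4d, Hist1h4h, Hist1h4i, Hist2h2be and Hist3h2a, and 7 of them have exon models over 1000 bases. Their log2 fold changes between the genotypes in luminal cells, from the same luminal libraries, lay between −0.50 and 0.80. Among WT cells, 8 of 14 longer and 2 of 36 shorter members were called higher in luminal cells, against 18% of all genes. Their median log2 fold changes were 1.71 and 0.05. In MMTVRANK cells the calls were 9 of 14 and 5 of 36, against 16.1% of all genes, with medians of 1.85 and 1.44.

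**Figure D4:**
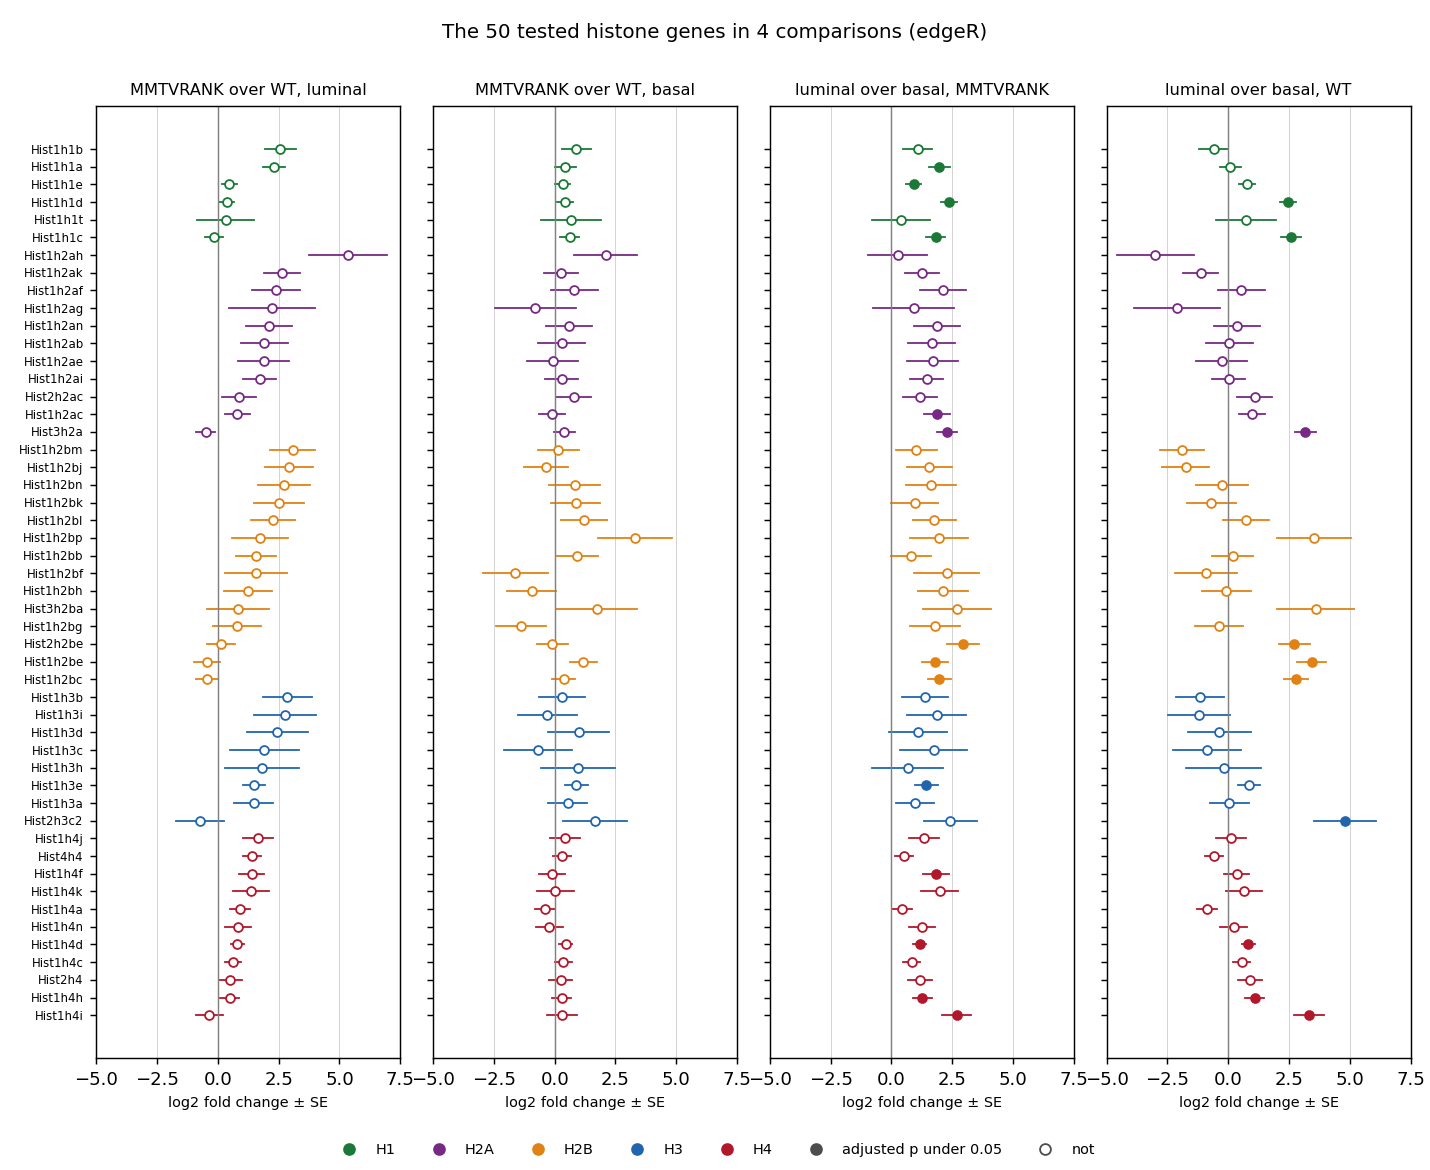
Log2 fold change (point) and SE (line) of the 50 tested histone genes in 4 comparisons, grouped by class and ordered within a class by the first panel. Filled points passed an adjusted p of 0.05. The first 2 panels hold no filled point, and the panels of luminal over basal cells hold 14 in MMTVRANK and 10 in WT, all to the right of 0.

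The machinery that makes and matures these mRNAs was examined through 18 genes. Between the genotypes in luminal cells edgeR called 0 of the 18, where 0.252% of all genes were called. An unadjusted p below 0.05 was reached by 4 of them, and by 2183 of the 18236 genes. Of the 18, 15 were above 0 and the median log2 fold change was 0.29. Slbp, which binds the stem-loop, was at 39.8, 25.4 and 35.1 CPM in MMTVRANK luminal and 23.5, 21.2 and 19.9 in WT luminal libraries, without overlap (log2 fold change 0.64, SE 0.25, adjusted p = 0.330). Npat, the coactivator of histone gene transcription, was at 43.2, 40.7 and 47.5 CPM in MMTVRANK and 35.5, 32.6 and 34.1 CPM in WT luminal libraries (log2 fold change 0.36, SE 0.19, adjusted p = 0.501). Casp8ap2, a processing factor of the histone locus body, was at 47.4, 41.9 and 52.6 CPM in MMTVRANK and 38.8, 34.4 and 31.3 CPM in WT luminal libraries (log2 fold change 0.44, SE 0.17, adjusted p = 0.285). In MMTVRANK mice, Cpsf3, the endonuclease that cuts histone pre-mRNA, and Cstf2 were called higher in luminal than in basal cells. Among all genes 16.1% were called higher and 17% lower there. In WT mice Cpsf3, Lsm10, Ncbp2 and Zcchc6 were called higher and Srrt lower, where 18% and 20% of all genes were. Of 4 genes for cyclin E and its kinase, 0 were called by edgeR between the genotypes in luminal cells, 2 had an unadjusted p below 0.05 and 4 were above 0, with a median of 1.09.

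Chaperones that carry histones to DNA were measured with 15 genes. None was called by edgeR between the genotypes in luminal cells, 13 were above 0 and the median was 0.68. An unadjusted p below 0.05 was reached by 8 of the 15, and by 2183 of the 18236 genes. Nap1l1, which carries H2A and H2B, was at 103 ± 29.3 CPM in MMTVRANK luminal and 48.2 ± 8.81 CPM in WT luminal libraries (SD, n = 3 each, log2 fold change 1.10, SE 0.23, adjusted p = 0.0720). Nasp, a chaperone of H3 and H4, was at 117, 100.2 and 178 CPM in MMTVRANK and 53.1, 65.0 and 49.6 CPM in WT luminal libraries, without overlap (log2 fold change 1.24, SE 0.27, adjusted p = 0.0832). Nasp and Nap1l1 were the chaperones called between WT populations, both lower in luminal cells, at log2 fold changes of -1.49 and -0.85. Among all genes 20% were called lower there. In MMTVRANK mice the single call was Ssrp1, higher in luminal cells, where 16.1% of all genes were called higher.

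Replication-independent histones, which are also made outside S phase and mostly from polyadenylated mRNA, gave 11 genes for contrast. None was called by edgeR between the genotypes in luminal cells, and 6 were above 0, with a median of 0.30. An unadjusted p below 0.05 was reached by 4 of the 11, and by 2183 of the 18236 genes. H2afx, which marks DNA breaks when phosphorylated and whose mRNA can end either way, was at 63.1, 37.3 and 76.7 CPM in MMTVRANK luminal and 19.7, 22.0 and 18.3 in WT luminal libraries, without overlap (log2 fold change 1.56, SE 0.30, adjusted p = 0.0594). Cenpa, the H3 of centromeres, was at 53.6, 24.2 and 39.9 CPM in MMTVRANK and 8.01, 21.8 and 8.07 CPM in WT libraries (log2 fold change 1.64, SE 0.66, adjusted p = 0.342). H2afz was at 12.7, 8.57 and 9.26 CPM in MMTVRANK and 6.06, 4.33 and 1.91 CPM in WT libraries (log2 fold change 1.31, SE 0.42, adjusted p = 0.201). H3f3b, which encodes H3.3, was at 704, 1142 and 913 CPM in MMTVRANK and 784, 1320.0 and 1288 CPM in WT luminal libraries, and replicate 1 was the lowest in either genotype, as in Hist1h1c. H3f3a, the other gene for H3.3, was at 19.6 ± 3.03 CPM in MMTVRANK and 19.7 ± 2.16 CPM in WT luminal libraries (SD, n = 3 each).

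In the population comparisons, H2afj, H2afy and H3f3b were called higher in luminal cells of both genotypes and H2afy2 lower. H2afx and H2afv were called higher in MMTVRANK mice, and H1f0 in WT mice. Among all genes 16.1% were called higher and 17% lower in MMTVRANK mice, and 18% and 20% in WT mice. H3f3b was at 274, 412 and 625 CPM in MMTVRANK basal libraries (log2 fold change 1.07, SE 0.34, adjusted p = 0.0277) and 324, 458 and 649 CPM in WT basal libraries (log2 fold change 1.25, SE 0.34, adjusted p = 0.0122). H2afj was at 63.1 ± 10.4 CPM in MMTVRANK luminal and 19.9 ± 2.80 CPM in MMTVRANK basal libraries (SD, n = 3 each, log2 fold change 1.66, SE 0.17, adjusted p = 1.7e-05).

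Genes of S phase, 24 in number, are given because histone mRNA is made at that time. In luminal cells Pola1 and Tyms were called higher in MMTVRANK, where 0.0932% of all genes were. All 24 were above 0, and the median was 1.60. Pola1, the catalytic subunit of DNA polymerase alpha, was at 67.2, 38.6 and 67.4 CPM in MMTVRANK luminal and 15.7, 16.7 and 16.7 in WT luminal libraries (log2 fold change 1.82, SE 0.31, adjusted p = 0.0430). Pcna, the sliding clamp, was at 52.5, 29.6 and 40.2 CPM in MMTVRANK and 19.7, 18.9 and 21.8 CPM in WT luminal libraries, without overlap (log2 fold change 1.02, SE 0.25, adjusted p = 0.109). The summed S phase genes were at 1471, 846 and 1519 CPM in MMTVRANK luminal and 432, 516 and 347 CPM in WT luminal libraries, a mean 2.96 times as high, and at 932, 607 and 703 CPM in MMTVRANK basal and 551, 1005 and 361 CPM in WT basal libraries.

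MMTVRANK luminal replicate 2 and WT basal replicate 2 stood out in these sums as they did in the shorter histone genes. MMTVRANK luminal replicate 2 had the lowest S phase sum of its group, and WT basal replicate 2 the highest. Mki67, a marker of dividing cells, was at 911, 402 and 878 CPM in MMTVRANK luminal and 72.5, 161 and 30.1 CPM in WT luminal libraries, without overlap (log2 fold change 3.05, SE 0.97, adjusted p = 0.212). The 16 genes of G2 and mitosis had 0 calls by edgeR in that comparison, 16 values above 0 and a median of 2.70. An unadjusted p below 0.05 was reached by 15 of the 16, and by 2183 of the 18236 genes. Between WT populations 6 S phase genes were called, all lower in luminal cells, where 20% of all genes were called lower, with a median of −0.71 over the 24, while the shorter histone genes had a median of 0.05. The part of S phase genes, leukocyte, basal, luminal and fibroblast markers and replicate number in the histone values was not tested.

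**Figure D5:**
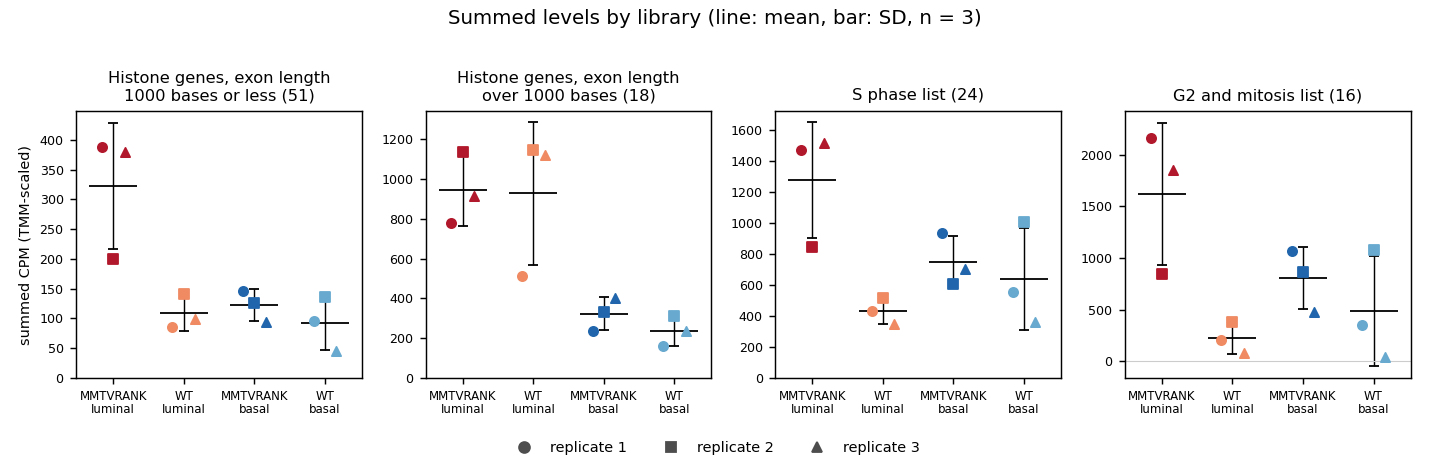
Summed CPM per library of the 51 histone genes with exon models of 1000 bases or less, the 18 with longer models, the 24 S phase genes and the 16 genes of G2 and mitosis (line: mean, bar: SD, n = 3), MMTVRANK left of WT. For the shorter histone genes and both cell cycle lists the MMTVRANK luminal libraries lie above the WT luminal libraries, and for the longer histone genes they overlap.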

How the data were processed

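RNA of 12 sorted mammary libraries was read as whole-number counts per gene symbol, deposited by the authors as 1 table. Per the file headers, featureCounts 1.5.2 counted exon overlaps by gene name on GENCODE M17 without a strand option and without multi-mapping reads. The submitters' processing notes name STAR 2.6.1b and GRCm38.p6. The stranded kit's reads carry no molecular identifiers as far as the labels say.

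Here, edgeR 4.0.16 (R 4.3.3) fitted 4 groups with TMM scaling, a filter by group and robust quasi-likelihood tests, with 8 residual degrees of freedom among samples and Benjamini-Hochberg adjustment over 18236 genes at 0.05. The fit was tested on simulated data with large changes in well-counted genes and less spread than here. This does not measure its power for small changes or for members with few reads. Standard errors were derived from each fold change and its F statistic. DESeq2 1.42.0, limma 3.58.1, other filters and scalings and left-out libraries were alternatives. Replicate numbers are in the titles. Correlations of same-numbered libraries' deviations were 0.560, 0.115 and 0.418 between genotypes in luminal cells and 0.258, 0.151 and 0.114 between MMTVRANK populations. They were 0.291, 0.168 and 0.380 between WT populations and 0.405, -0.0467 and 0.160 between genotypes in basal cells. All were above 0.1 except replicate 2 in the basal comparison. Differently numbered libraries were not correlated, so whether the numbers pair libraries was not tested. The main fit used no replicate block.

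The histone genes and the gene lists were chosen with earlier results of these data known. Named genes were the 3 highest per kilobase in each class, in each comparison the called members with the 5 highest log2 fold changes or, where none was called, the 3 with the smallest p, preset members and up to 4 genes of each pathway list.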

Additional observations from a re-analysis of the deposited data

How the results depend on the processing

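Between the genotypes in luminal cells, the 0 calls by edgeR became 9 with DESeq2, 6 without a filter on low counts and 2 without both libraries labelled WT replicate 2, and leaving out each replicate in turn gave 0 to 2. In basal cells every alternative run gave 0. Between MMTVRANK populations the 14 calls ranged from 9 to 19 when each replicate was left out in turn, and 8 of the 14 were called under all 19 alternatives. Between WT populations 6 of the 10 were called under all 19. For the interaction, the fit without a filter gave 3, for which no share of all genes is given, and all others 0. With a replicate block the calls numbered 0 and 0 between the genotypes in luminal and basal cells, 14 and 11 between MMTVRANK and WT populations, and 0 for the interaction, and no call was lost. The log2 fold change of H3f3a between genotypes in luminal cells, close to 0, reversed to 0.0685 without both libraries labelled WT replicate 2, and lay between -0.143 and 0.0682 with single replicates left out. The causes were not tested. Depth limits members with few reads: 4 tested members had 3 counts or fewer in some group.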
